A study of Homo sapiens with 70 samples.

Results

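The replication-dependent histone genes are the clustered genes whose GENCODE 19 symbols start with HIST1H, HIST2H, HIST3H or HIST4H, and this family was followed through all 11 groups of a study of HMGA1 in oncogene-induced senescence (OIS). The rule used gene symbols alone and found 72 genes among the 44503 in each count table, of which 71 are protein-coding and 1 (HIST2H2BA) is a pseudogene. There were 55 members in the HIST1 cluster on chromosome 6, 13 in HIST2 and 3 in HIST3 on chromosome 1, and 1 in HIST4 on chromosome 12. By protein they comprised 6 linker histone H1 genes, 17 H2A, 19 H2B, 15 H3 and 15 H4 genes.

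The study counted poly(A)-selected RNA from 70 libraries in 3 experiments. IMR90 cells, normal human lung fibroblasts, all carried the retroviral vector pLNCX2 with ER:HRAS G12V, an oncogenic RAS protein fused to the hormone-binding part of the oestrogen receptor, which 4-hydroxytamoxifen (4OHT) switches on. In the HMGA1 experiment, Grow cells had an empty pMSCV miR vector and no 4OHT, Grow-shA1 cells had the same vector with a short hairpin against HMGA1, and OIS and OIS-shA1 were their counterparts after 6 days of 100 nM 4OHT (n = 8 each; the labels call OIS "RIS"). In the CEBPB and p53 experiment, Grow-v-v (no 4OHT) and OIS-v-v had empty pSuper and pMSCV miR vectors, while hairpins against CEBPB (OIS-shCEBPB), against p53 (OIS-shp53) or against both (OIS-shCEBPB-shp53) took their place in the remaining groups (n = 5 each, 6 days of 100 nM 4OHT in the 4 OIS groups). H1299, a non-small cell lung carcinoma line grown in atmospheric rather than 5% oxygen, carried the empty pMSCV miR vector (n = 7) or the HMGA1 hairpin (H1299-shA1, n = 6). RAS activation was compared between cultures with and without 4OHT, so that 4OHT itself and RAS cannot be told apart.

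Histone proteins package DNA into nucleosomes, and a dividing cell makes most of its new core histones (H2A, H2B, H3 and H4) and linker H1 in S phase. The messenger RNAs of the clustered genes usually end not in a poly(A) tail but in a short hairpin, the stem-loop, which the protein SLBP binds and which is cut by the U7 snRNP machinery. Some clustered genes can also be transcribed past the stem-loop to a polyadenylation signal, and such tailed transcripts are known from differentiated and non-dividing cells. Because these libraries were poly(A)-selected, the values below describe tailed transcripts and whatever untailed RNA was carried along, not the whole output of the genes.

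The stem-loop is shown first, since it is the element that the counted exons either end near or run past. Where the transcripts themselves ended was not examined. It was found in GRCh37, on the strand of the gene, in all 72 members within the gene or up to 300 bases past its end, by the letters GGNNCTTNTNAGNNCC, where N is any base. A match was kept only if all 6 positions of the stem also paired, with G to T pairs allowed. Such matches occurred 204 times on both strands of the 3 chromosomes that hold the members, which is 0.195 matches per megabase. In the sequences below, written as DNA from 5′ to 3′, capitals mark both arms of the 6-base-pair stem and lower case marks the 4-base loop.
commonest form, 42 genes including HIST1H2AC, HIST2H2BE, HIST1H1C and HIST1H2BG: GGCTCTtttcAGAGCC
10 genes including HIST1H2BK, HIST1H2BD, HIST1H2BC and HIST1H2BJ: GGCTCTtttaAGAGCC
10 H4 genes including HIST1H4H: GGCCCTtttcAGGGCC
4 H4 genes including HIST2H4B: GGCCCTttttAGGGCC
HIST1H2AG: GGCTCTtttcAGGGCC
HIST1H3E: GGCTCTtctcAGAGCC
The stems of all 15 H4 genes differed from the commonest form, and HIST1H2AG alone paired the left arm of the commonest form with the right arm of the H4 forms.

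Counted exons fell into a pair of classes with a gap between them. In 49 genes, described here as ending at the stem-loop, the exons ended no more than 51 bases after it, and in 23 genes they ran past it by 285 bases or more. In HIST1H3D, HIST1H3J and HIST2H3PS2, 2 stem-loops were found, and bases were counted from the first. For HIST1H3D and HIST1H3J the first is also the stem-loop of HIST1H2AD and HIST1H2AM. Whether these H3 genes run past a stem-loop of their own is not shown, and they are kept among the 23. Among the 49 were 9 genes, such as HIST1H4C and HIST1H2AD, whose exons stopped 11 to 62 bases before the last base of the stem-loop. The 49 genes had a median CPM (counts scaled to the size of each library) of 0.0920 per kilobase of exon in the HMGA1 experiment, 0.118 in the CEBPB and p53 experiment and 0.139 in H1299. The 23 genes had medians of 0.353, 0.357 and 0.390, and they held 85.5%, 84.7% and 83.5% of the summed histone CPM. The class of a gene did not fix its level: HIST1H1C, which encodes linker histone H1.2, ends 4 bases past its stem-loop and was the highest of its class, at 14.5, 17.6 and 30.5 CPM per kilobase in the 3 experiments.

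**Figure D1:**
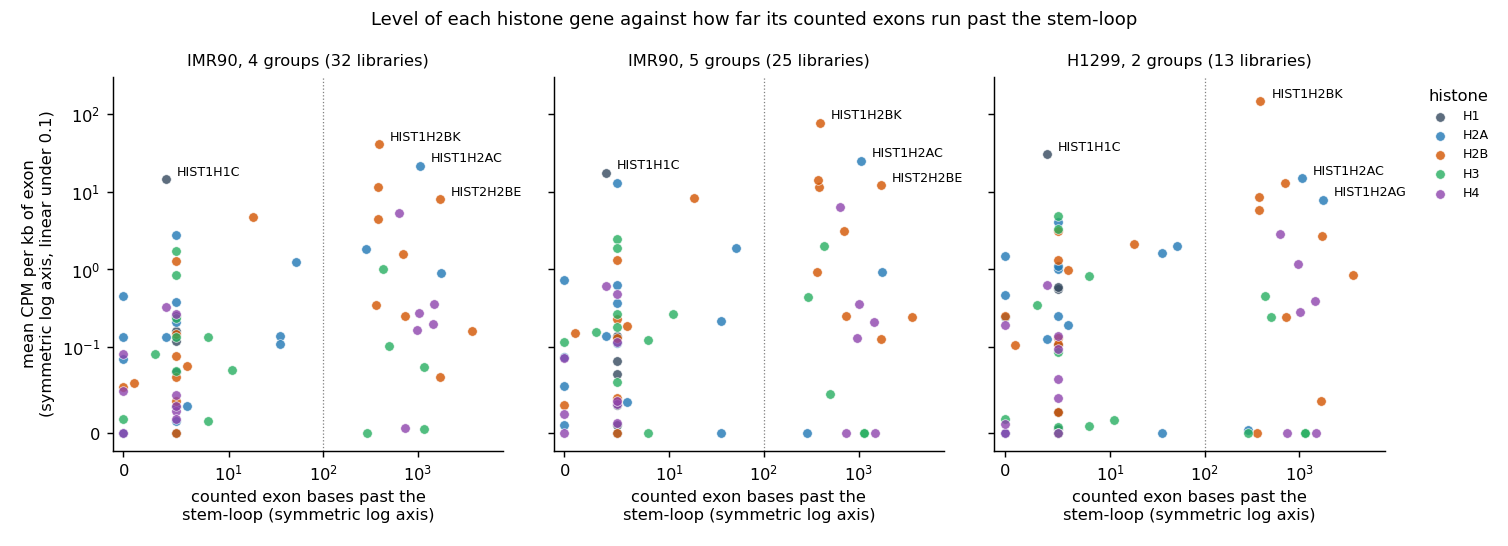
Each point is 1 of the 72 histone genes. The horizontal axis gives the counted exon bases beyond the first stem-loop found (symmetric log axis). The vertical axis gives the mean CPM per kilobase of exon (symmetric log axis, linear under 0.1), with 1 panel per experiment and a colour per histone. The dotted line at 100 bases parts the 49 genes ending at the stem-loop from the 23 running past it, which include HIST1H2BK at 40.8, 77.7 and 146 CPM per kilobase.

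The promoters are shown for genes at which the comparisons below turn. RefSeq promoters (GRCh38.p14, 250 bases before to 50 after the start) matched 66 of the 72 members, and capitals mark 4 motifs searched on both strands: the octamer ATTTGCAT bound by OCT1, the CCAAT box, the TATA box written TATAAA, and the E2F letters TTTCCCGC, TTTCGCGC, TTTGCCGC or TTTGGCGC. HIST1H2BK lies on the minus strand of chromosome 6 at chr6:27146809-27147108, HIST1H2AG and HIST1H2AC on its plus strand at chr6:27132793-27133092 and chr6:26123922-26124221, HIST2H2BE on the minus strand at chr1:149886633-149886932 and HIST1H1C on the minus strand at chr6:26056421-26056720.
HIST1H2BK: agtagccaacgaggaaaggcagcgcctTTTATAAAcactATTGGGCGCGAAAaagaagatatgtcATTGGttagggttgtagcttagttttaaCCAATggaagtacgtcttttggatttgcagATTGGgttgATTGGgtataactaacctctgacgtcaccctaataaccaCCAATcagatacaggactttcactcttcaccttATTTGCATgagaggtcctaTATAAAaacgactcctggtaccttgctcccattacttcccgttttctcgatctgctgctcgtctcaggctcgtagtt
HIST1H2AG: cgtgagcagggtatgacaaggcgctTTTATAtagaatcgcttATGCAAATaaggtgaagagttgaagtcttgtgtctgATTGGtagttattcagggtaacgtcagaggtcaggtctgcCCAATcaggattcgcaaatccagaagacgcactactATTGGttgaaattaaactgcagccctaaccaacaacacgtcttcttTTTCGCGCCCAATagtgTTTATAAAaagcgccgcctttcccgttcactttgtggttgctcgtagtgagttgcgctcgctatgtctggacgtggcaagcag
HIST1H2AC: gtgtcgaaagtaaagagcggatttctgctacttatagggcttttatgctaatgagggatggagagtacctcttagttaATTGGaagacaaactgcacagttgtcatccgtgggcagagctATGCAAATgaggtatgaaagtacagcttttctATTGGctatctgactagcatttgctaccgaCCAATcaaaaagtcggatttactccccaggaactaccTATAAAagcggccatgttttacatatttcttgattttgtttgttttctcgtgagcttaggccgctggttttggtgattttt
HIST2H2BE: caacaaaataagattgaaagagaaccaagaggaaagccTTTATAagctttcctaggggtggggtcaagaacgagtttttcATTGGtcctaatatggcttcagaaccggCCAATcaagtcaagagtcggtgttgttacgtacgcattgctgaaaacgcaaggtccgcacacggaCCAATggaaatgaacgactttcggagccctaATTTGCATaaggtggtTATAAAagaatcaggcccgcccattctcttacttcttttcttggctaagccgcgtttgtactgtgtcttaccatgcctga
HIST1H1C: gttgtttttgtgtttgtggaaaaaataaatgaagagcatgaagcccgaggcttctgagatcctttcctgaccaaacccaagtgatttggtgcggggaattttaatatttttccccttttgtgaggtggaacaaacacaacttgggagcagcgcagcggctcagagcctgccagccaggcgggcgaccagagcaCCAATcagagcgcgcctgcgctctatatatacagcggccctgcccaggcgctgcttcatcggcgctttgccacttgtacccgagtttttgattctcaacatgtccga
The octamer stood in 26 of the 66 promoters (39.4%) against 1.80% of 27305 promoters of all genes. It was in 14 of 18 H2B and 11 of 16 H2A promoters, in 1 of 13 H3 promoters and in none of the 6 H1 or 13 H4 promoters. CCAAT stood in 56 (84.8%, against 35.7% of all promoters), which was every H1, H2A, H2B and H3 promoter and 3 of 13 H4 promoters, TATAAA in 44 (66.7%, against 12%) and the E2F letters in 16 (24.2%, against 3.33%). In HIST1H2BK and HIST1H2AG the E2F letters stand directly beside a CCAAT match, without overlap, and TTTATAAA holds TATAAA on both strands. The HIST1H1C window held 1 CCAAT and none of the other motifs. A match of letters is a description of the window and not a binding site.

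Totals ran from 13904974 to 24890797 counts per library, except for OIS replicate 4, which had 1903607. HMGA1, the targeted gene, fell from 479 ± 39.1 CPM in Grow to 34.5 ± 3.89 in Grow-shA1, from 736 ± 66.1 in OIS to 59.8 ± 5.74 in OIS-shA1 and from 1887 ± 97.3 in H1299 to 379 ± 34.1 in H1299-shA1 (mean ± SD). CEBPB fell from 296 ± 25.9 CPM in OIS-v-v to 35.5 ± 6.72 in OIS-shCEBPB and 32.4 ± 4.24 in OIS-shCEBPB-shp53. Of 8 fibroblast markers, all were at 1 CPM or more on average in IMR90, with sums of 5539 to 51594 CPM per library, and 2 were in H1299, where LUM was at 0. All 8 were lower in OIS than in Grow (median log2 fold change −2.75), and their part in the histone results was not tested. The 5 epithelial markers summed to 43.7 to 122 CPM in IMR90 and 627 to 1132 in H1299, the 4 endothelial markers to at most 6.26 CPM in any library and the 4 blood cell markers to 15.7 to 90.1, with the T-cell gene CD3D at 0 throughout. In these bulk libraries fewer cells expressing a gene and less RNA per cell cannot be told apart.

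In the CEBPB and p53 experiment the libraries of each group fell apart by replicate number, in a way that the labels do not mention. The first principal component of the deviations from group means held 45.3% of their variance and put the 15 libraries with replicate numbers 1 to 3 at −0.218 to −0.111 and the 10 libraries numbered 4 and 5 at 0.185 to 0.329. Histone genes moved with this division. Their summed CPM was 1.46 to 2.44 times as high in replicates 1 to 3 as in replicates 4 and 5 of the same group, and 9 of the 15 members at 1 CPM or more were higher without overlap in all 5 groups. The component was taken over 11983 genes, and the share of all genes parted in this way was not counted. Whether histone genes stand out in this is therefore not known. HIST1H2BK, for example, stood at 84.3, 82.4 and 81.8 CPM in OIS-v-v replicates 1 to 3 and at 34.2 and 33.2 in replicates 4 and 5. What distinguishes these libraries is not given in the sources used here and its part in the results was not tested. Counts of calls in this experiment are therefore also given within both sets of replicates, as are the values of the genes described at length.

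Few members carried most of the counts. In the HMGA1 experiment 12 of the 72 reached a mean of 1 CPM and 5 had no count in any of the 32 libraries, while 15 and 16 reached 1 CPM in the other experiments. HIST1H2AC (33.8 CPM), HIST1H2BK (31.8 CPM) and HIST2H2BE (17.7 CPM), which encode core histones, together held 64.2% of the summed CPM in the HMGA1 experiment. The shares of the leading 3 were 65.3% in the CEBPB and p53 experiment and 68.6% in H1299, where HIST1H1C took the place of HIST2H2BE. Per kilobase the order in the HMGA1 experiment was HIST1H2BK (40.8), HIST1H2AC (21.7), HIST1H1C (14.5), HIST1H2BD (11.4), HIST2H2BE (7.98), HIST1H4H (5.35), HIST1H2BG (4.71) and HIST1H2BC (4.41). In hg19, HIST1H2BK lies at chr6:27106073-27114577 on the minus strand, HIST1H2AC at chr6:26124373-26139344 on the plus strand, HIST2H2BE at chr1:149856010-149858232 on the minus strand, HIST1H1C at chr6:26055968-26056699 on the minus strand and HIST1H2AG at chr6:27100832-27103070 on the plus strand.

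The cell lines differed in which members stood high, with levels set across tables that were counted separately and so not tested. HIST1H2BK held 48.9% of the summed CPM in H1299, at 108 ± 9.65 CPM in the vector group. HIST1H2AG and its neighbour HIST1H2BJ stood at 16.2 ± 2.11 and 11.1 ± 1.75 CPM in H1299 and at 2.53 ± 0.488 and 1.37 ± 0.397 in Grow. HIST1H3E, an H3 gene, was at 0.354 ± 0.141 CPM in Grow and had 1 count in all 13 H1299 libraries together. HIST2H2AA3 and HIST2H4B, which have near-identical copies, had counts in every library of the HMGA1 experiment and none in the 25 libraries of the CEBPB and p53 experiment, where a count of 0 allows up to 3 counts, or 0.121 to 0.206 CPM by library (counting error only). In H1299 they had 1 count and none over 13 libraries. Reads shared between copies were not counted in the HMGA1 and H1299 tables, so the values of both genes are uncertain.

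**Figure D2:**
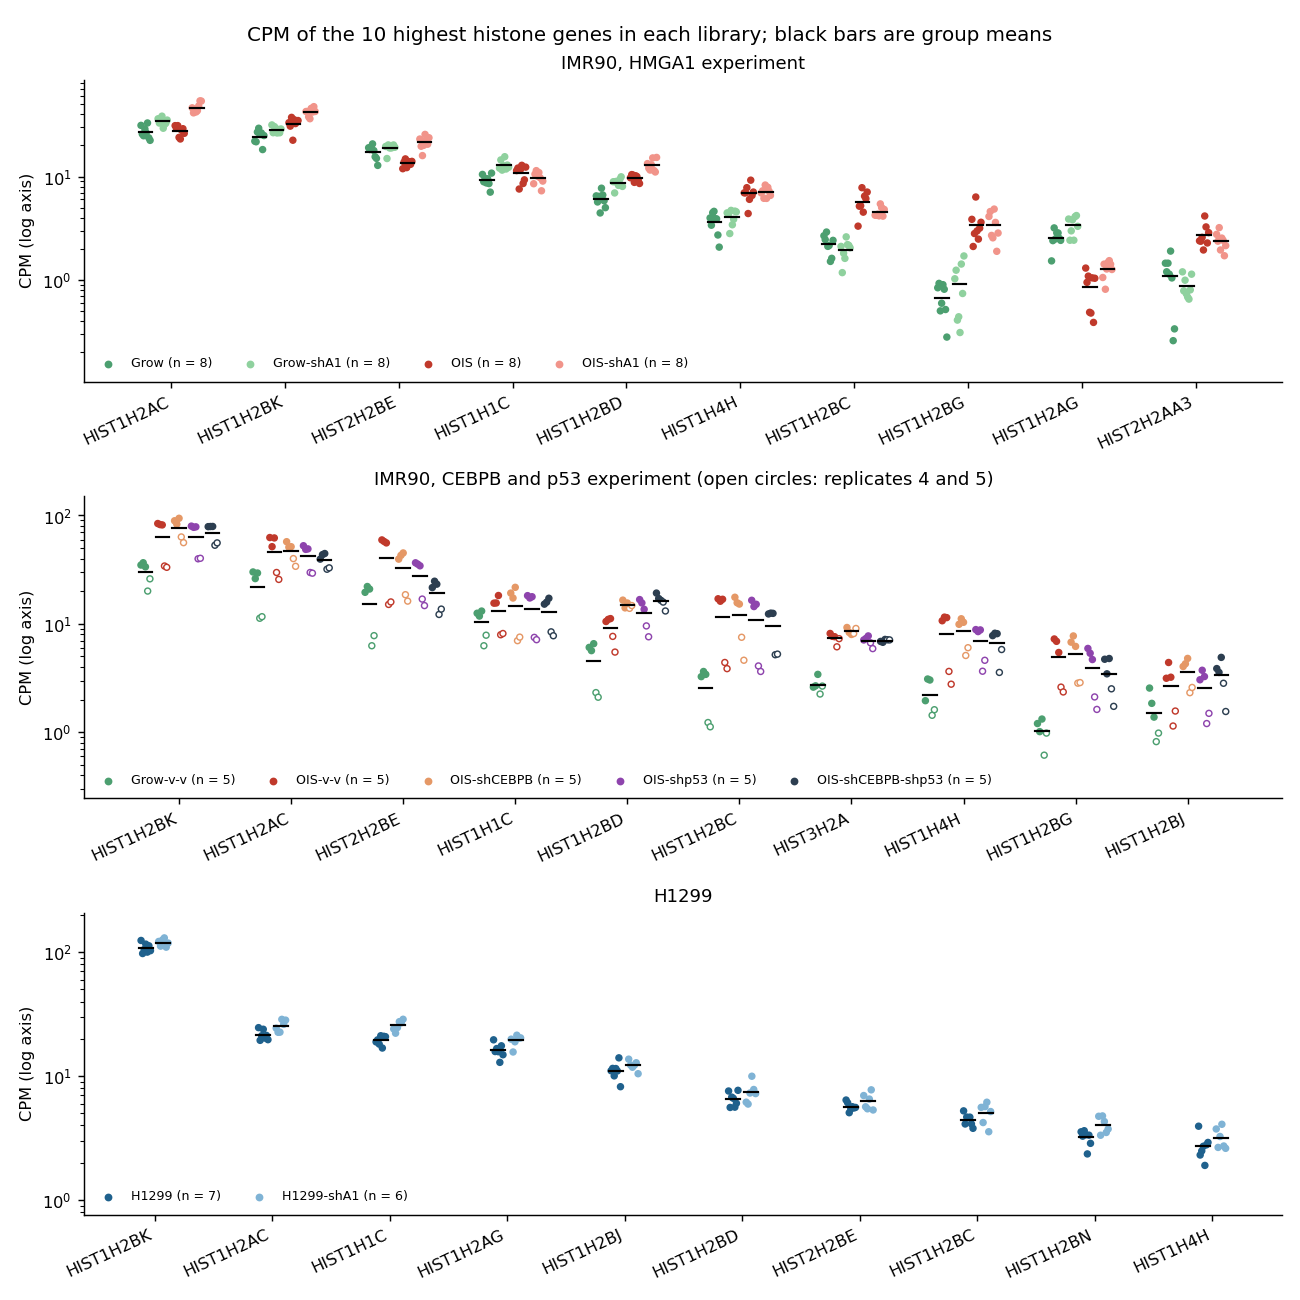
CPM on a log axis of the 10 histone genes with the highest mean in each experiment; each point is a library, black bars are group means and colours are groups, with open circles for replicates 4 and 5 of the CEBPB and p53 experiment. HIST1H2BC, HIST1H2BG and HIST1H2BD sit higher in OIS than in Grow, HIST1H2AG sits lower, and the open circles of the middle panel lie below the filled ones in most groups.

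RAS-senescent cells were compared with growing cells in 3 comparisons that share no library: OIS against Grow, OIS-shA1 against Grow-shA1, and OIS-v-v against Grow-v-v. The comparison addresses how leaving the cell cycle under oncogenic RAS changes these genes. Differences were tested with edgeR's quasi-likelihood test over all genes with Benjamini-Hochberg adjustment at 0.05, and log2 fold changes are given with their standard error (SE). A member entered the test only if it passed edgeR's filter on low counts, so that most of the 72 were too low to be tested.

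Of 14 members tested in OIS against Grow, 10 were higher (38.8% of all 13304 genes tested were) and 2 were lower (35.9% of all genes). In OIS-shA1 against Grow-shA1, 12 of 17 were higher (37.1% of all genes) and 3 lower (36%). In OIS-v-v against Grow-v-v, 12 of 18 were higher (22.7%) and 2 lower (23.2%). The median log2 fold change of the members tested was 0.85, 0.58 and 1.19, against 0.03, 0.02 and 0.01 for all genes. These medians cover only members that passed the filter, and with every gene of at least 1 count kept they turned to −0.14 over 66 members, −0.41 over 65 and −0.028 over 61 (0.11, 0.07 and −0.02 for all genes). There were 13 members tested in every one of the 3 comparisons, of which 8 were higher in all of them (HIST1H2AE, HIST1H2BC, HIST1H2BD, HIST1H2BG, HIST1H2BK, HIST1H3D, HIST1H4H and HIST3H2A) and 1, HIST1H2AG, was lower in all. The share of all genes called in 1 direction in all 3 comparisons was not counted. Whether histone genes stand out in this is therefore not known.

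H2B genes gave 4 of the 10 members higher in OIS than in Grow. HIST1H2BG had the largest rise: its CPM ranged from 0.281 to 0.928 in Grow (median 0.705) and from 2.11 to 6.34 in OIS (median 3.08). The groups did not overlap, and the log2 fold change was 2.23 (SE 0.22, adjusted p = 4.84e-10). In OIS-shA1 against Grow-shA1 it was 1.88 (SE 0.27, adjusted p = 4.94e-07). HIST1H2BC ranged from 1.51 to 2.91 CPM in Grow (median 2.28) and from 3.31 to 7.80 in OIS (median 5.67), again without overlap, and rose by 1.33 (SE 0.16, adjusted p = 1.96e-08) and, with the HMGA1 hairpin on both sides, by 1.21 (SE 0.14, adjusted p = 1.25e-08). HIST1H2BD ranged from 4.45 to 7.71 CPM in Grow and from 8.56 to 10.4 in OIS and rose by 0.72 (SE 0.10, adjusted p = 2.17e-07). HIST1H2BK, the highest H2B gene, rose less: 18.2 to 29.3 CPM in Grow (median 25.2) overlapped 22.4 to 37.3 in OIS (median 33.5), with a log2 fold change of 0.47 (SE 0.08, adjusted p = 5.67e-06).

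H2A genes went both ways. HIST1H2AE rose by 1.33 (SE 0.31, adjusted p = 0.00041) from 0.454 ± 0.289 CPM in Grow to 1.09 ± 0.378 in OIS, and HIST3H2A by 1.42 (SE 0.30, adjusted p = 9.23e-05) from 0.681 ± 0.310 to 1.68 ± 0.937. HIST2H2AA3, whose copies share reads, rose by 1.36 (SE 0.25, adjusted p = 1.93e-05). HIST1H2AG fell: its CPM was 1.53 to 3.19 in Grow (median 2.51) and 0.389 to 1.30 in OIS (median 0.994). These ranges did not meet, and the log2 fold change was −1.48 (SE 0.21, adjusted p = 4.61e-07) and, in OIS-shA1 against Grow-shA1, −1.39 (SE 0.17, adjusted p = 3.68e-08). HIST1H2AC, the most counted member, stood at 27 ± 3.70 CPM in Grow and 27.7 ± 3.04 in OIS (log2 fold change 0.08, SE 0.08, adjusted p = 0.365), while OIS-shA1 was above Grow-shA1 by 0.45 (SE 0.06, adjusted p = 4.80e-07). With library sizes in place of TMM scaling, which moved the median of all genes from 0.03 to 0.22, HIST1H2AC was called higher in OIS (0.27, adjusted p = 0.00324) and HIST2H2BE was no longer called lower (−0.13, adjusted p = 0.155).

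Among the H3 and H4 genes, HIST1H3D rose from 0.391 ± 0.167 to 1.2 ± 0.485 CPM (log2 fold change 1.65, SE 0.28, adjusted p = 7.39e-06), although its exons overlap those of HIST1H2AD on the same strand, so that its count is uncertain. HIST1H4H, the only H4 gene above 1 CPM in the HMGA1 experiment, ranged from 2.08 to 4.61 CPM in Grow and from 4.39 to 9.22 in OIS and rose by 0.99 (SE 0.14, adjusted p = 2.31e-07). HIST1H3E was tested with the HMGA1 hairpin, where it rose by 1.25 (SE 0.33, adjusted p = 0.00129).

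A pair of members passed the test in opposite directions in different comparisons. HIST1H1C was higher in OIS than in Grow (log2 fold change 0.24, SE 0.11, adjusted p = 0.0499), a call that held in 4 of 16 fits leaving out 1 library each, and lower in OIS-shA1 than in Grow-shA1 (−0.40, SE 0.09, adjusted p = 0.000272), which held in 16 of 16. Its groups did not overlap in the second comparison, at 11.5 to 15.5 CPM in Grow-shA1 and 7.28 to 11.4 in OIS-shA1. HIST2H2BE was lower in OIS (11.9 to 14.8 CPM, median 13.8) than in Grow (12.8 to 20.7, median 18), with a log2 fold change of −0.32 (SE 0.08, adjusted p = 0.0012), and higher in OIS-shA1 than in Grow-shA1 (0.19, SE 0.08, adjusted p = 0.0384), a call that held in 8 of 16 such fits.

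In OIS-v-v against Grow-v-v, HIST1H2BC stood at 3.26, 3.63, 3.42, 1.23 and 1.12 CPM in Grow-v-v replicates 1 to 5 and at 17, 16.2, 16.9, 4.4 and 3.86 in OIS-v-v. The groups did not overlap, and it was higher by a log2 fold change of 2.18 (SE 0.48, adjusted p = 0.00255), and by 2.27 (adjusted p = 3.16e-14) within replicates 1 to 3 and 1.81 (adjusted p = 0.000166) within replicates 4 and 5. HIST1H2BG rose by 2.24 (SE 0.35, adjusted p = 0.000218; 2.45 and 1.64 within the sets), HIST1H4H by 1.84 (SE 0.41, adjusted p = 0.00273; 2.06 and 1.081) and HIST3H2A by 1.44 (SE 0.14, adjusted p = 5.35e-06; 1.42 and 1.45), and each passed within both sets. HIST3H2A differed little between the sets of replicates, at 2.61, 2.68, 3.42, 2.25 and 2.66 CPM in Grow-v-v and 8.15, 7.67, 7.61, 6.14 and 7.30 in OIS-v-v.

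HIST2H2BE stood at 19.5, 22.1, 20.9, 6.28 and 7.78 CPM in Grow-v-v and at 59.5, 57.5, 55.8, 15.1 and 15.9 in OIS-v-v, so the groups overlapped across the sets of replicates but not within either. Its log2 fold change was 1.41 (SE 0.46, adjusted p = 0.0243), with 1.46 within replicates 1 to 3 and 1.15 within replicates 4 and 5, the opposite direction to OIS against Grow. This call held in 5 of 10 fits leaving out 1 library each. HIST1H2AC was higher as well, by 1.09 (SE 0.33, adjusted p = 0.0168; 1.03 and 1.28 within the sets), and HIST1H2BK by 1.07 (SE 0.28, adjusted p = 0.00832; 1.23 and 0.55). HIST1H2AG was at 3.56, 3.34, 2.32, 1.57 and 1.05 CPM in Grow-v-v and 1.74, 1.31, 1.52, 0.761 and 1.27 in OIS-v-v, and its fall of 0.85 on the log2 scale (SE 0.33, adjusted p = 0.0492) passed in replicates 1 to 3 (−1.01, adjusted p = 0.000294) but not in replicates 4 and 5 (−0.38, adjusted p = 0.486), and held in 3 of 10 fits leaving out 1 library each. HIST1H2BH, which averaged under 1 CPM and was singled out after its values were seen, fell from 1.42 ± 0.359 to 0.218 ± 0.0582 CPM (log2 fold change −2.65, SE 0.30, adjusted p = 1.41e-05; −2.82 and −2.46 within the sets). Within replicates 1 to 3, 15 of 19 members tested were higher (33% of all genes) and 2 lower (33.8%), and within replicates 4 and 5, 10 of 16 were higher (20.2%) and 1 lower (20.3%). With the replicate number as a block, 14 of 18 were higher (24.8% of all genes), with HIST1H1C (0.33, adjusted p = 0.0216) and HIST1H2BJ (0.81, adjusted p = 0.0116) added, and 2 were lower.

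**Figure D3:**
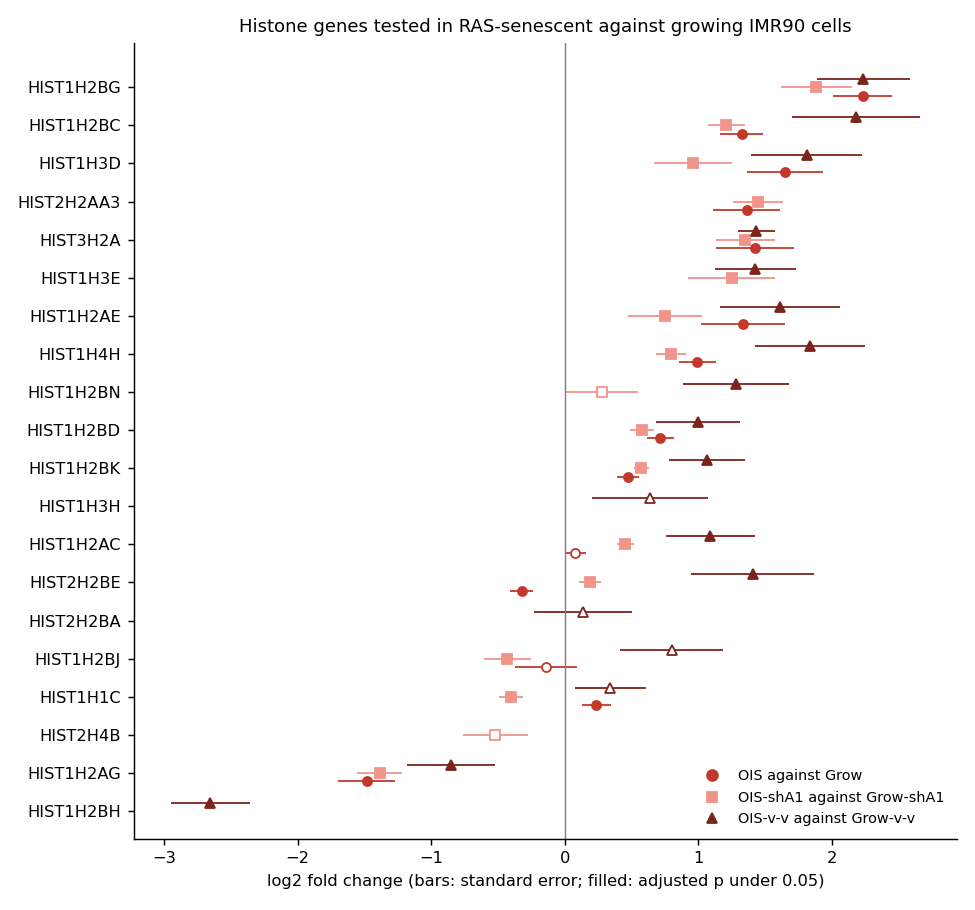
Log2 fold change with its standard error for the 20 histone genes tested in at least 1 comparison of RAS-senescent with growing IMR90 cells; symbols and colours give the comparison, filled symbols passed an adjusted p of 0.05 and open symbols did not. Most genes lie right of 0, HIST1H2AG lies left of it in all 3 comparisons, and HIST2H2BE lies on either side.

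Most members under the count filter held few reads. With every gene of at least 1 count kept, 66 members entered OIS against Grow, of which 12 were higher (25.8% of all genes were) and 9 lower (21.5%). Of the 65 that entered OIS-shA1 against Grow-shA1, 11 were higher (23%) and 12 lower (21.6%), and of the 61 in OIS-v-v against Grow-v-v, 12 were higher (13.1%) and 3 lower (13.1%). Genes ending at the stem-loop made up 45 of the 66 members in OIS against Grow, 4 of the 12 higher and 7 of the 9 lower. With the HMGA1 hairpin on both sides they made up 43 of the 65, 4 of the 11 higher and 11 of the 12 lower. HIST1H2BM and HIST1H2BI had 6 and 9 counts over the 8 Grow libraries and none over the 8 OIS libraries. HIST1H1B, which encodes linker histone H1.5, had 27 counts in Grow and 6 in OIS. Such values lie at the limit of this depth.

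Knock-down of HMGA1, a chromatin protein that binds AT-rich DNA, was compared with its vector in growing and in senescent IMR90 cells. Growing cells raised 6 of 15 members tested (14.8% of all genes were higher) and lowered none (15.1% were lower), and OIS cells raised 4 of 17 (18.8%) and lowered none (17.1%). For members lowered, edgeR gave 0 and 2 in these comparisons at an unadjusted p under 0.05 (HIST1H2AE and HIST1H2BC in OIS cells), and DESeq2 called 0 in both. OIS-shA1 against OIS shares its libraries with the RAS comparisons above, as does Grow-shA1 against Grow, so their values stand side by side and are not independent.

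HIST1H2AC had the largest rise among the members called in OIS cells. Its CPM was 23.1 to 31 in OIS (median 28.5) and 41.2 to 53.8 in OIS-shA1 (median 44.7), with no overlap, for a log2 fold change of 0.73 (SE 0.07, adjusted p = 4.24e-09). In growing cells it was 22.4 to 32.9 (median 26.1) and 29.3 to 38.3 (median 34), with a smaller change of 0.34 (SE 0.07, adjusted p = 0.000717). HIST2H2BE rose in OIS cells, from 11.9 to 14.8 CPM to 15.9 to 25.5 (median 21.6; log2 fold change 0.65, SE 0.08, adjusted p = 3.81e-07), and in growing cells it differed by 0.13 (SE 0.08, adjusted p = 0.268). HIST1H2BD rose by 0.40 in OIS (SE 0.08, adjusted p = 0.000461) and by 0.52 in growing cells (SE 0.10, adjusted p = 0.000324), and HIST1H2BK by 0.33 (SE 0.07, adjusted p = 0.000267) and 0.22 (SE 0.07, adjusted p = 0.0253), the latter in 12 of 16 fits leaving out 1 library each.

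HIST1H1C behaved in the other manner. It rose in growing cells, from 7.06 to 10.8 CPM in Grow (median 9.20) to 11.5 to 15.5 in Grow-shA1 (median 12.5), with a log2 fold change of 0.49 (SE 0.09, adjusted p = 8.34e-05). In OIS cells the difference was −0.13 (SE 0.11, adjusted p = 0.362). HIST1H2AG rose by 0.41 in growing cells (SE 0.15, adjusted p = 0.042), held in 6 of 16 fits leaving out 1 library each, and HIST2H4B, an H4 gene whose copies share reads and which overlaps HIST2H3A, rose by 1.30 (SE 0.30, adjusted p = 0.00141) from 0.364 ± 0.203 to 0.917 ± 0.247 CPM.

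The test of the difference itself, the interaction of the HMGA1 hairpin with OIS, called 2 members with a more positive effect in OIS (12.2% of all genes) and 2 with a more negative one (11.4%) out of 18. The hairpin's effect was more positive in OIS for HIST2H2BE by 0.53 (SE 0.12, adjusted p = 0.000955) and for HIST1H2AC by 0.39 (SE 0.10, adjusted p = 0.00472), and more negative for HIST1H1C by 0.62 (coefficient −0.62, SE 0.14, adjusted p = 0.00111) and for HIST2H4B (−1.60, SE 0.40, adjusted p = 0.00297). All 4 calls held in 32 of 32 fits leaving out 1 library each. For HIST1H2BK (0.11, SE 0.10) and HIST1H2BD (−0.12, SE 0.13) the interaction did not pass.

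In H1299 the HMGA1 hairpin raised 3 of 23 members tested (8.65% of all genes were higher) and lowered none (6.93% were lower; edgeR gave 0 at an unadjusted p under 0.05 and DESeq2 called 0). HIST1H1C rose from 16.9 to 21.2 CPM (median 19.6) to 22.2 to 28.8 (median 25.8), without overlap, by a log2 fold change of 0.40 (SE 0.07, adjusted p = 0.000482), and this call held in all 13 fits leaving out 1 library each. HIST1H2AC rose by 0.24 (SE 0.07, adjusted p = 0.0261), held in 7 of 13 such fits, and HIST1H2AG by 0.26 (SE 0.08, adjusted p = 0.0427), held in 3 of 13. HIST1H2BK stood at 108 ± 9.65 CPM in H1299 and 120 ± 7.93 in H1299-shA1 (log2 fold change 0.14, SE 0.06, adjusted p = 0.0917).

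**Figure D4:**
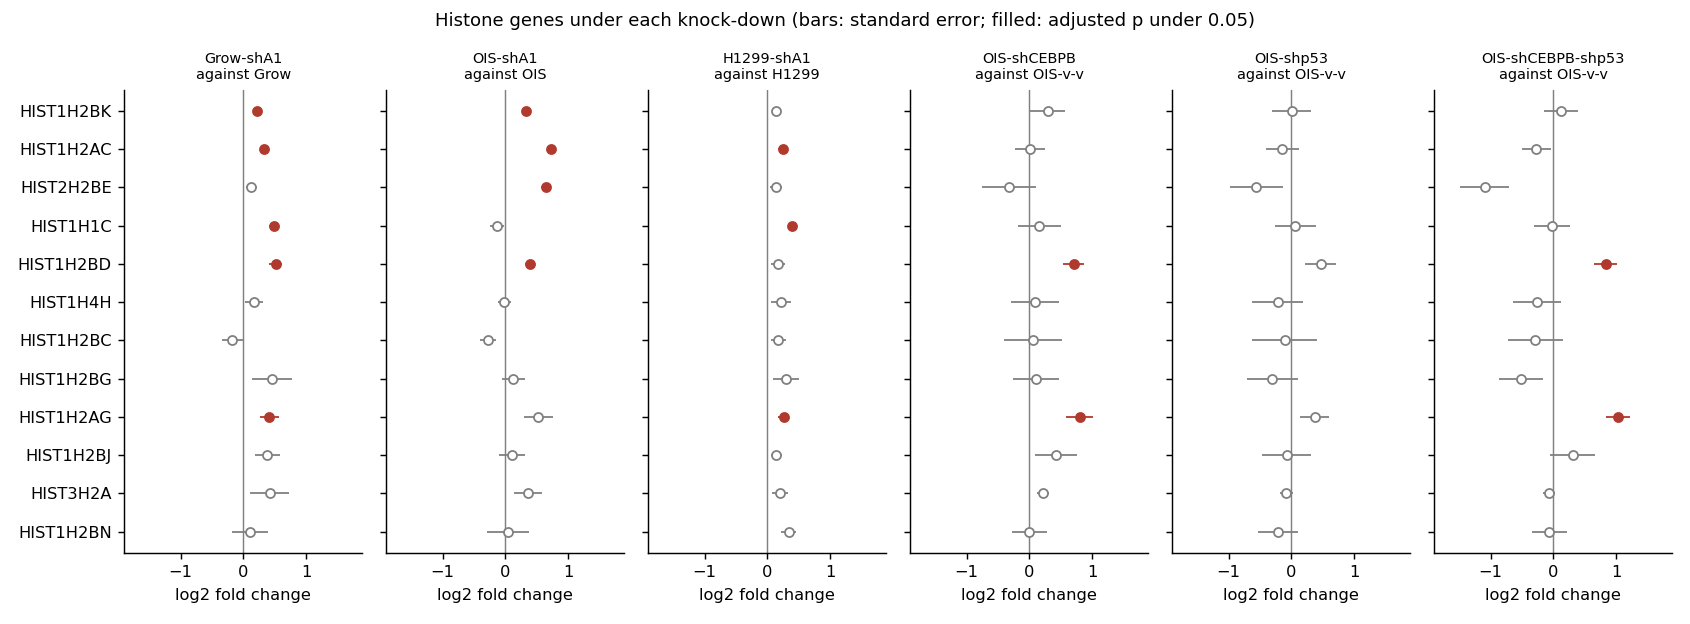
Log2 fold change with its standard error for 12 histone genes under each knock-down, 1 panel per comparison; filled red points passed an adjusted p of 0.05 and open points did not. HIST1H1C passes in the growing IMR90 and the H1299 panels, HIST2H2BE in the OIS panel of the HMGA1 hairpin, and HIST1H2BD and HIST1H2AG in both panels with the CEBPB hairpin.

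Knock-down of CEBPB, a transcription factor of the senescent secretory programme, of p53, or of both was compared with OIS-v-v, and these 3 comparisons share the OIS-v-v libraries. OIS-shCEBPB raised 2 of 18 members tested (9.09% of all genes were higher) and lowered none (8%). OIS-shCEBPB-shp53 raised 2 of 17 (17.1%) and lowered none (16.5%). OIS-shp53 changed none of 17 (2.47% of all genes were higher and 1.97% lower). For members lowered, edgeR gave 0, 1 (HIST2H2BE) and 0 at an unadjusted p under 0.05 in OIS-shCEBPB, OIS-shCEBPB-shp53 and OIS-shp53, and for members raised in OIS-shp53 it gave 0. DESeq2 called 0 in each of these 4 cases.

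The same 2 genes, HIST1H2BD and HIST1H2AG, were raised in both groups with the CEBPB hairpin. HIST1H2BD stood at 10.5, 11, 11.2, 7.66 and 5.49 CPM in OIS-v-v replicates 1 to 5, at 16.6, 14, 15.6, 13.9 and 14.7 in OIS-shCEBPB and at 19.2, 17.1, 16.5, 15.9 and 13.1 in OIS-shCEBPB-shp53. Both knock-down groups lay above every OIS-v-v library, by 0.71 (SE 0.17, adjusted p = 0.0123) and 0.83 (SE 0.18, adjusted p = 0.0035), and the gene passed within replicates 1 to 3 and within replicates 4 and 5 in both comparisons. HIST1H2AG, the gene that fell in senescence, stood at 2.28, 2.58, 1.74, 2.46 and 2.48 CPM in OIS-shCEBPB and 2.44, 2.77, 2.98, 2.78 and 2.63 in OIS-shCEBPB-shp53, against the OIS-v-v values above. It rose by 0.80 (SE 0.21, adjusted p = 0.0209) and by 1.04 (SE 0.19, adjusted p = 0.00142). The first of these did not pass within replicates 1 to 3 (0.51, adjusted p = 0.0924), nor without OIS-shCEBPB replicate 2, which left 1 member called.

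The other members depended on the set of replicates. Within replicates 1 to 3, OIS-shCEBPB raised 1 of 20 members (16.6% of all genes were higher) and lowered 1 (16%), OIS-shp53 raised 1 and lowered 4 of 19 (17.6% and 16.5%), and OIS-shCEBPB-shp53 raised 2 and lowered 6 of 19 (27.3% and 26.4%). Within replicates 4 and 5, OIS-shCEBPB raised 6 of 17 (13.2%) and OIS-shCEBPB-shp53 raised 5 of 18 (15.1%). HIST2H2BE was the only member lower in all 3 of these comparisons within replicates 1 to 3: it was at 59.5, 57.5 and 55.8 CPM in OIS-v-v, 39.6, 42.8 and 45.1 in OIS-shCEBPB, 36.6, 35.6 and 34.3 in OIS-shp53 and 21.6, 24.7 and 23.2 in OIS-shCEBPB-shp53. Within these replicates its log2 fold changes were −0.44 (adjusted p = 2.26e-05), −0.70 (adjusted p = 3.73e-10) and −1.31 (adjusted p = 1.76e-12). In replicates 4 and 5 they were 0.17, 0.04 and −0.26, and none passed. HIST1H4E, an H4 gene named after its values were seen, was also lower within replicates 1 to 3 in OIS-shp53 (−1.09, adjusted p = 0.0161) and OIS-shCEBPB-shp53 (−1.30, adjusted p = 0.00646).

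With the replicate number as a block, OIS-shCEBPB raised 4 of 18 members (16.9% of all genes), adding HIST1H2BK (0.37, adjusted p = 0.0251) and HIST1H2BJ (0.46, adjusted p = 0.0469). OIS-shp53 then raised 1, HIST1H2BD (0.46, adjusted p = 0.00225; 12% of all genes), and lowered 1, HIST2H2BE (−0.47, adjusted p = 0.00854; 10.7%). OIS-shCEBPB-shp53 lowered 2 (21.4% of all genes), HIST2H2BE (−0.96, adjusted p = 0.00104) and HIST1H2BG (−0.49, adjusted p = 0.0227). The interaction of both hairpins called none of 20 members, as it called 0.0216% of all genes in each direction, with 0 members at an unadjusted p under 0.05 in edgeR and 0 called by DESeq2.

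There were 12 pairs of an H2A and an H2B gene standing back to back, with 5′ ends 190 to 505 bases apart, and their partners could differ in direction. HIST1H2AC and HIST1H2BC start 235 bases apart, and their RefSeq promoter windows overlap. In OIS against Grow the H2B partner rose by 1.33 while the H2A partner differed by 0.08, and in OIS-shA1 against OIS the H2A partner rose by 0.73 while the H2B partner differed by −0.28 (SE 0.13, adjusted p = 0.106). HIST1H2AG and HIST1H2BJ, 505 bases apart, differed by −1.48 and −0.14 in OIS against Grow. HIST1H2AE and HIST1H2BG, 293 bases apart, both rose. In 4 other pairs only 1 partner was counted enough to be tested in the RAS comparisons, and in 5 pairs neither was. HIST1H2BK stood at 31.8 CPM and HIST1H2AH at 0.0618 CPM in the HMGA1 experiment, and HIST2H2BE at 17.7 CPM and HIST2H2AC at 0.167 CPM. HIST1H2BN, whose exons run 3704 bases past the stem-loop, stood at 0.687 CPM beside 0.0961 CPM for HIST1H2AK. Per kilobase of exon the order turned, with HIST1H2BN at 0.161 CPM and HIST1H2AK at 0.209 CPM.

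Genes of DNA replication, histone variants, histone chaperones, histone transcription, stem-loop 3′ end formation and message decay were counted from 6 lists. In the replication, variant, chaperone and decay lists most of the genes called were lower in senescence. In OIS against Grow the 3′ end list gave more genes higher than lower. Of all genes tested, 38.8%, 37.1% and 22.7% were higher and 35.9%, 36% and 23.2% lower in the 3 RAS comparisons. All 12 DNA replication genes were lower in each of the 3 RAS comparisons, with medians of −1.60, −1.97 and −1.57, among them the ribonucleotide reductase subunit RRM2 (−2.68 in OIS against Grow) and the helicase subunit MCM6 (−2.70). Of the histone variant genes outside the clusters, 9 of 11 tested were lower and 1 higher in OIS against Grow, 11 lower in OIS-shA1 against Grow-shA1, and 9 lower in OIS-v-v against Grow-v-v. H2AFZ, encoding H2A.Z, fell from 250 ± 7.85 to 101 ± 5.94 CPM (log2 fold change −1.29), the centromeric CENPA fell by 4.32 on the log2 scale, and H1F0, encoding H1.0, fell from 190 ± 13.4 to 143 ± 10.2 CPM (−0.39). H2AFJ fell by 0.50 in OIS against Grow and differed by 0.21 in OIS-v-v against Grow-v-v, without passing there, and H3F3B, encoding H3.3, differed by −0.03 in OIS against Grow.

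Histone chaperones were lower in 8 of 15 and higher in 3 in OIS against Grow, with HJURP (−3.46), ASF1B (−2.61) and CHAF1B (−2.55) falling furthest. Of 11 genes that form the stem-loop 3′ end, 5 were higher and 3 lower. LSM11, a subunit of the U7 snRNP, fell by 1.4 and LSM10, its partner, rose by 0.67, while SLBP stood at 67.7 ± 4.08 CPM in Grow and 61.2 ± 5.76 in OIS (log2 fold change −0.14, called lower). Of 7 genes that switch on histone transcription at the start of S phase, 2 were higher and 3 lower: the cyclin gene CCNE2 (−1.82) and CDK2 (−1.72) fell and CCNE1 rose by 0.63, and NPAT differed by 0.04. Of 4 genes of stem-loop message decay, 3 were lower, ERI1 the furthest (−0.47). In Grow-shA1 against Grow, 11 of the 12 DNA replication genes were higher (median 0.24), and in OIS-shA1 against OIS 5 were lower (median −0.10). In OIS-shCEBPB-shp53 against OIS-v-v 5 of the 12 were higher, in OIS-shCEBPB 1 was lower and in OIS-shp53 none passed.

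The summed CPM of the 72 members is given as a description, since it rests on a few genes. It was 104 ± 10.1 in Grow, 126 ± 5.22 in Grow-shA1, 126 ± 7.95 in OIS and 164 ± 8.59 in OIS-shA1 (SD, n = 8). All OIS-shA1 libraries (152 to 174) lay above all libraries of the other 3 groups (85.2 to 135). The summed CPM of the genes ending at the stem-loop was not highest in OIS-shA1. It was 15.1 ± 1.66, 20 ± 2.07, 20.3 ± 2.07 and 19.8 ± 2.30 CPM in the same order. HIST1H1C alone held 10.6 of the 18.8 CPM that this class averaged in the HMGA1 experiment. That gene was lower in OIS-shA1 than in Grow-shA1, as given above. The class sums therefore rest largely on 1 gene. All 6 H1 genes are in this class, and they summed to 9.85 ± 1.26, 13.6 ± 1.31, 11 ± 2.05 and 10 ± 1.48 CPM in the same order. What the H1 genes left of the class mean was largest in OIS-shA1, close to that in OIS. The order of the groups was not tested. In the CEBPB and p53 experiment the sum ranged from 126.8 to 128 CPM in Grow-v-v replicates 1 to 3 and from 281 to 296 in OIS-v-v, and in replicates 4 and 5 from 62.4 to 75.2 and from 115 to 122. In H1299 it was 218 ± 17.5 CPM with the vector (n = 7) and 249 ± 14.3 with the hairpin (n = 6).

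**Figure D5:**
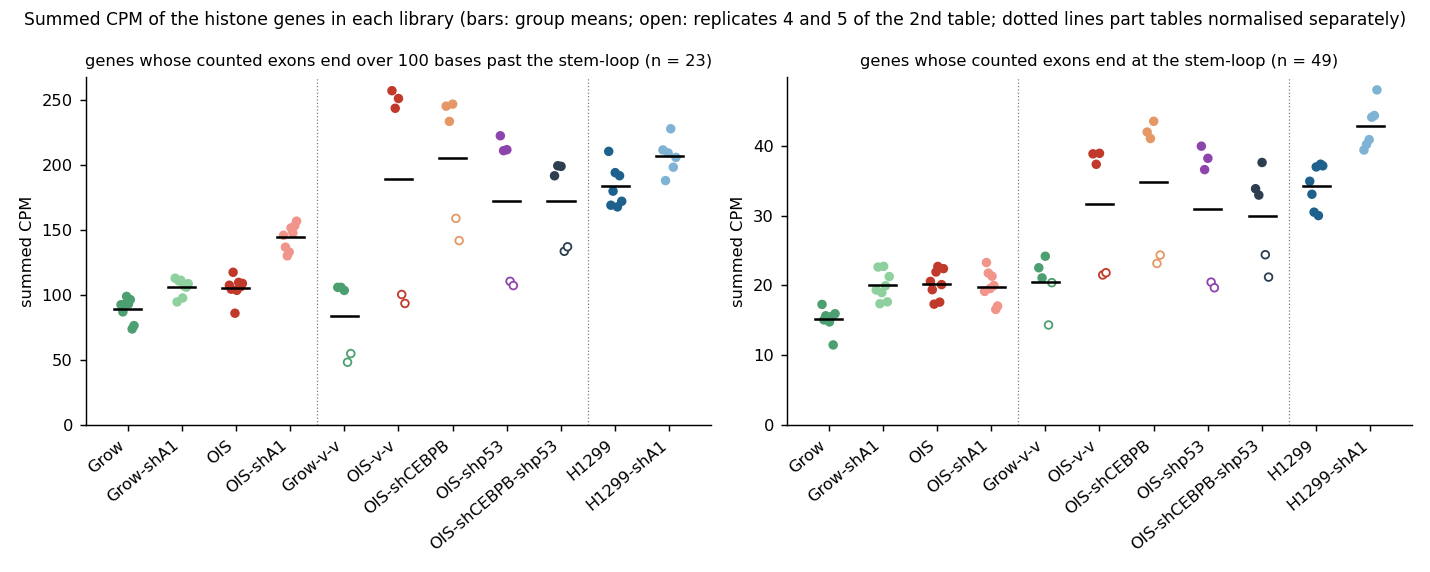
Summed CPM in each library of the 23 histone genes whose counted exons run past the first stem-loop found (left) and of the 49 that end at it (right). Groups stand along the horizontal axis and black bars are group means. Open circles are replicates 4 and 5 of the CEBPB and p53 experiment, and dotted lines part experiments normalised separately. In the left panel OIS-shA1 lies above the other groups of its experiment, at 144 ± 9.91 CPM against 105 ± 8.96 in OIS.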

How the data were processed

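RNA-seq counts of 70 libraries in 11 groups were analysed, with groups taken from the sample labels. The authors aligned reads with STAR to hg19 and counted them on GENCODE 19, and the deposited values are raw counts per gene, unstranded, with featureCounts 1.5.2 per the file headers of the HMGA1 and H1299 tables (the CEBPB and p53 table names no program). Reads mapping to several places or genes were not counted in the HMGA1 and H1299 tables, so close copies and overlapping genes (HIST1H3D with HIST1H2AD, HIST1H3J with HIST1H2AM, HIST2H4A with HIST2H3C, HIST2H3A with HIST2H4B, HIST2H2AB with BOLA1, HIST2H2BF with FCGR1A) are uncertain. HIST2H3PS2 is uncertain as well, since its exons overlap those of several other counted genes. It had 0 counts in the HMGA1 and H1299 experiments and 144 in the CEBPB and p53 experiment. Columns without a sample numbered 0.

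The 72 members were named by identifier (38), exon overlap (31) or promoter sequence (3). The members and the 6 gene lists (61 genes) were chosen with earlier results of these data known. Each table was scaled by TMM and tested with edgeR 4.0.16 in R 4.3.3 (quasi-likelihood, only the groups compared). Genes had to pass filterByExpr at a minimum of 10 counts, with Benjamini-Hochberg over all genes and a threshold of 0.05. CPM use TMM-scaled library sizes, and a prior count of 2 entered only the correlations between same-numbered libraries. The fits were tested on simulated counts. DESeq2 1.42.0, other scalings and filters, a replicate block and leaving out each library were alternatives, and the division of replicates 1 to 3 from 4 and 5 was added after seeing the data.

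Genes named were the 10 highest per table, up to 6 rises and 6 falls per comparison among called members averaging at least 1 CPM, members called in opposite directions, pair partners, the targeted genes and, per list, up to 3 genes with SLBP, NPAT, H2AFJ, H1F0, H2AFZ and H3F3B. Some results for single genes are not reported here. In the CEBPB and p53 experiment the replicate numbers pair the samples, since all 5 same-numbered pairs correlated above 0.1 in each comparison (0.142 to 0.593). The labels call the samples biological replicates, and p-values measure the spread between them. In the main fits of the CEBPB and p53 experiment that spread includes the division. The labels name 6 replicates where 8 libraries are given. Counts of 1903607 to 24890797 per library set the precision, and libraries came from 2 kits and 2 sequencers without a record of which.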

Additional observations from a re-analysis of the deposited data

Results flagged for a closer look

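Among 213 sets of values of 1 gene or sum in 1 group, 11 (5.16%) held a library far from the others by Dixon's test. Chance flags about 1 in 20 of independent sets, but these sets share libraries, so the share cannot be judged by that rate. OIS replicate 4, the library with 1903607 counts, gave 4 of them: HIST1H2BG at 6.34 CPM, HIST1H2BK at 22.4 CPM, HIST2H2AC at 0.975 CPM and the summed CPM at 108. In Grow-shA1, replicate 2 stood apart for HIST1H2AH (0.196 CPM) and HIST2H2BE (14.9 CPM) and replicate 6 for HIST1H2BJ (2.79 CPM). The others were HIST1H3D in OIS replicate 3 (2.35 CPM), HIST3H2A in OIS-shA1 replicate 7 (3.55 CPM), HIST3H2BB in OIS-shCEBPB replicate 5 (0.169 CPM) and HIST2H2AA3 in H1299 replicate 3 (0.0437 CPM, 1 count).

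The effect of the HMGA1 hairpin differed between OIS and growing cells by an interaction term for 4 members. The difference was 0.53 for HIST2H2BE, 0.39 for HIST1H2AC, −0.62 for HIST1H1C and −1.60 for HIST2H4B on the log2 scale.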

How the results depend on the processing

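Counts of calls were compared in each direction separately, so a reversal was not defined for them. In OIS-shA1 against Grow-shA1, 12 higher and 3 lower became 11 higher and 12 lower with no filter beyond 1 count. In OIS-shCEBPB-shp53 against OIS-v-v, 2 higher and 0 lower became 2 higher and 6 lower within replicates 1 to 3. No named gene's call reversed under the alternatives run. The median log2 fold change of the members tested did with no filter beyond 1 count, from 0.85 to −0.14 in OIS against Grow (0.33 with at least 10 counts in every library), from 0.58 to −0.41 in OIS-shA1 against Grow-shA1 and from 1.19 to −0.028 in OIS-v-v against Grow-v-v, where more members entered; this check of the medians was added after seeing the data. Of 57 named calls, 44 held under all alternatives run and 13 did not under at least 1, and of 100 named values without a call 75 stayed so and 25 did not. With at least 10 counts in every library, which removes genes from the test, the counts were 3 higher and 1 lower in OIS against Grow, 7 higher in OIS-shA1 against Grow-shA1, 7 higher and 1 lower in OIS-v-v against Grow-v-v, and 1 negative interaction of the HMGA1 hairpin with OIS. With no filter beyond 1 count, 9 were lower in OIS against Grow, 11 higher and 12 lower in OIS-shA1 against Grow-shA1, 1 lower in OIS-shA1 against OIS, and 4 higher and 1 lower in OIS-shCEBPB-shp53 against OIS-v-v. With library sizes alone, the lower count was 2 in OIS-shA1 against OIS but 1 in OIS against Grow, and the summed CPM was 121 in Grow-shA1 and 136 in OIS. With all groups in 1 fit, 1 was lower in OIS-shCEBPB-shp53. Without the member with the highest mean, the summed CPM was 76.8 in Grow, 91.8 in Grow-shA1, 97.9 in OIS, 118 in OIS-shA1, 163 in OIS-shCEBPB, 133 in OIS-shCEBPB-shp53, 109 in H1299 and 130 in H1299-shA1.

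With the replicate block, 4 were higher in OIS-shCEBPB, 1 higher and 1 lower in OIS-shp53, 2 lower in OIS-shCEBPB-shp53 and 5 higher in H1299-shA1. Same-numbered libraries correlated at −0.148 to 0.178 in the HMGA1 experiment and −0.145 to 0.288 in H1299, so pairing by number was not shown there. With a term for replicates 1 to 3 against 4 and 5, chosen after seeing the data, 5 were higher and 1 lower in OIS-shCEBPB, 1 higher and 1 lower in OIS-shp53 and 2 lower in OIS-shCEBPB-shp53. Within replicates 1 to 3 the counts were 1 higher and 1 lower, 1 higher and 4 lower, and 6 lower in the same order. Within replicates 4 and 5 they were 6 higher in OIS-shCEBPB, 5 higher in OIS-shCEBPB-shp53 and 1 lower in OIS-v-v against Grow-v-v.

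Leaving out 1 library each gave 0 to 1 lower in OIS-shA1 against OIS, 1 to 2 lower in OIS-v-v against Grow-v-v, 1 to 3 higher in OIS-shCEBPB, 0 to 1 lower in OIS-shCEBPB-shp53 and 1 to 4 higher in H1299-shA1. The cause of these changes was not tested.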
